A study of Mus musculus with 4 samples.

Results

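The MEF2 family of transcription factors was examined in neutrophil precursors (immature granulocytes) of mouse bone marrow with and without the microRNA miR-223. Its members are the 4 genes Mef2a, Mef2b, Mef2c and Mef2d, of 27674 gene names on the array (clone and accession names included). Every non-control probe carrying a member's name was taken, which gave 7 of 41174 probes: 2 for Mef2c, 2 for Mef2a, 2 for Mef2d and 1 for Mef2b. The groups were sorted cells of male C57BL/6 mice, wild type (WT, 2 samples) or miR-223 KO (2 samples), each hybridised with Cy3 label to an array of its own. The labels give no age, no sorting gate, no description of the deleted allele and no statement on whether replicates are separate or pooled animals. The spread behind each p-value may therefore be that of technical repeats. Mef2c is a reported target of miR-223, and its paralogues served as the comparison.

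MEF2 proteins bind DNA through a MADS box and an adjoining MEF2 domain that are nearly the same in all family members, and they switch between repression and activation. In the resting state they recruit class IIa histone deacetylases. Calcium signals and the kinases p38 and ERK5 release these repressors or phosphorylate MEF2 itself, and coactivators such as p300 then take their place. In blood, MEF2C is known from lymphoid and monocyte development and from B cells, MEF2D from B cell development, and MEF2A and MEF2D are broadly expressed. miR-223 is an abundant microRNA of myeloid cells, and MEF2C is known as a target through which it restrains granulocyte progenitors.

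The sequences that bear on the comparison are the seed of miR-223 and the coding stretches that the probes of Mef2d, Mef2a and Mef2b read. Target transcripts usually match the seed at least in part. In the microRNA (RefSeq, GRCm38.p6, chrX:96242884-96242905, plus strand) capitals mark the seed, bases 2 to 8. In the Mef2d and Mef2a probes, read 5′ to 3′ on the transcript's strand, capitals mark the bases that are identical in an ungapped alignment of the 2 probes; the Mef2a probe is shown up to the stop codon at bases 47 to 49.
mmu-miR-223-3p: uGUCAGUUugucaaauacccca
Mef2d A_51_P504672: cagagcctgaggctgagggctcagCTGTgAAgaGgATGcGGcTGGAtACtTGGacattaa
Mef2a A_52_P311841: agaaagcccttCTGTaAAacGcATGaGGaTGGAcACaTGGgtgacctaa
Mef2b A_52_P9878: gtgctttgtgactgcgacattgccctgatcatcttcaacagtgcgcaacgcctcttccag

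The Mef2d and Mef2a probes read the same short C-terminal stretch of the paralogous proteins, and 21 of 29 aligned bases (72.4%) were identical. The Mef2b probe reads part of the MADS box. Between the Mef2c probe A_51_P135802 and each of the other 6 probes, the best ungapped alignment covered between 7 and 11 bases. The array's probes for Mef2c and for its paralogues therefore share little sequence with each other.

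Whether a MEF2 probe itself covers a miR-223 seed match was read from the probe sequences, written on the strand of the mRNA. None of the 7 probes (0 of 7) holds the 8mer AACTGACA, the 7mer AACTGAC, the 7mer ACTGACA or the 6mer ACTGAC, which lie within one another, on either strand. Of all 41174 probes 0.136% hold the 8mer in sense, 0.372% and 0.471% the 7mers and 1.41% the 6mer. These letters are not in these 60-base windows, and the rest of the transcripts was not searched here.

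Probe positions are given on mm9, the build of the array files. The Mef2c probe A_51_P135802 lies at chr13:83802754-83802813 and was designed from base 2394 of a RefSeq Mef2c mRNA. The second Mef2c probe, A_52_P282110, lies 85631 bases upstream on the plus strand at chr13:83717123-83717182, and was designed on a retina cDNA clone whose product the array's annotation calls unclassifiable. Both Mef2a probes were designed on the same RefSeq mRNA, A_52_P311841 at chr7:74379743-74379802 and A_52_P290579 345 bases farther along the transcript at chr7:74379398-74379457. The Mef2b probe lies at chr8:72689001-72689060. Exon, intron and UTR annotation of mm9 was not used here.

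The 2 Mef2d probes read different forms of the transcript's end. The 60 bases of A_51_P504672 span 347 bases of the genome (chr3:87972214-87972560), so the probe skips 287 bases and reads a spliced mRNA. A_52_P334052 (chr3:87972325-87972384) lies inside that span, 111 bases after its start and 176 before its end, which places it in the skipped stretch. It was designed on an embryo cDNA clone and reports transcripts that keep this stretch.

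Between 59.6% and 62.9% of the non-control spots on an array were well above background (the scanner software's call), and 0 were saturated. The 75th percentile of the signal lay between 310 and 422. All 4 arrays lay on 1 slide. No probe (0) is named for Mir223, so the deletion itself could not be read. Of 14 granulocyte precursor markers 12 were found on the array and all 12 were well above background on all 4 arrays, among them Mpo (myeloperoxidase), Elane (neutrophil elastase) and Camp (cathelicidin). The number of arrays limits the precision of every value below.

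Levels are log2 signals with the array's 75th percentile subtracted, so 0 is the signal at that percentile. Differences are KO minus WT on the same scale. They were tested by limma across 25749 probes, those called well above background by 2 or more arrays, with Benjamini-Hochberg adjustment and a threshold of 0.05. Of the 7 MEF2 probes 5 passed that filter, all of them well above background on all 4 arrays, and 2 (Mef2b and the upstream Mef2c probe) did not.

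Mef2c was higher in KO on the probe of its mRNA, by a size that missed the threshold over all probes. The level of A_51_P135802 was -0.91 in WT replicate 1, -0.82 in WT replicate 2, -0.49 in KO replicate 1 and -0.37 in KO replicate 2. Both KO arrays lay above both WT arrays, and the gap between the groups was larger than the distance between the replicates of either. The mean level was -0.87 ± 0.06 (SD, n = 2) in WT and -0.43 ± 0.08 (SD, n = 2) in KO. This is a log2 difference of 0.43 ± 0.10 (SE), or 1.35-fold, with a 95% confidence interval of 0.17 to 0.70 from the limma fit. The adjusted p of limma was 0.118 (unadjusted p = 0.0106).

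The call on Mef2c depended on how limma's prior spread was modelled. Without an intensity trend 0 of the 5 MEF2 probes passed, and 0 of all 25749 did (0%; 6342 had an unadjusted p under the threshold). With an intensity trend in limma's prior the Mef2c difference had an adjusted p of 0.0448 and Mef2c was the only 1 of the 5 to pass. In that fit 9.63% of all probes passed and 5.03% passed as higher in KO, so the call placed Mef2c among 1295 probes. Of all probes tested, 9.13% had a difference above 0.43, the median was -0.03, and 26.3% had both KO arrays above both WT arrays.

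**Figure D1:**
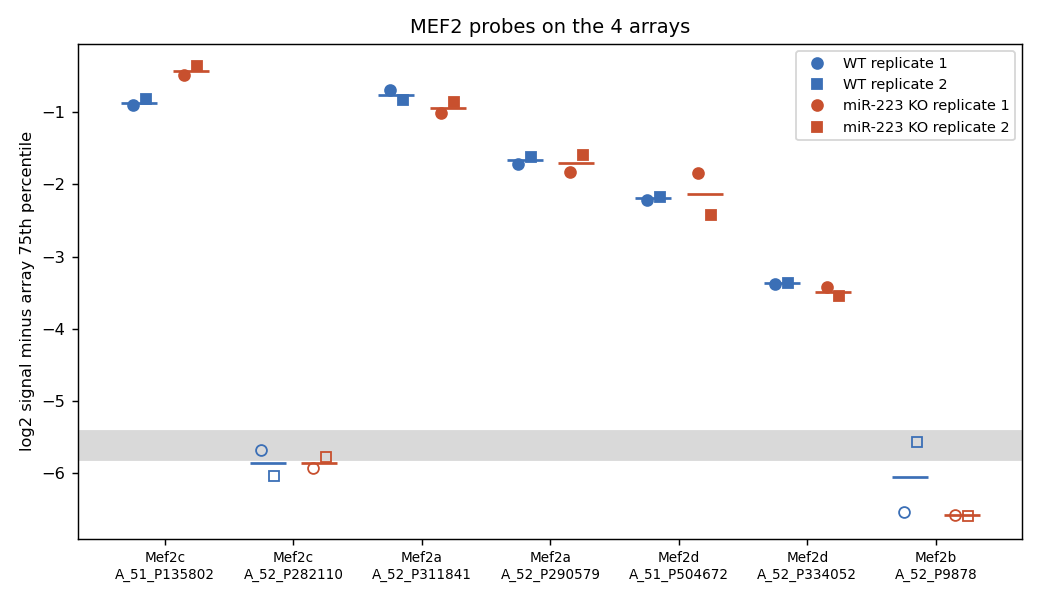
Level of each MEF2 probe on each array (y axis, log2 signal minus the array's 75th percentile), with WT in blue, miR-223 KO in red, circles for replicate 1, squares for replicate 2 and a bar at each group mean. Open symbols are probes not well above background on any array, and the grey band spans the lowest well-above-background level of the 4 arrays (-5.82 to -5.42); for Mef2c A_51_P135802 the KO arrays (-0.49 and -0.37) lie above the WT arrays (-0.91 and -0.82). Heights of different probes are not comparable with each other.

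The upstream Mef2c probe gave no usable level. A_52_P282110 was not well above background on any of the 4 arrays, with levels of -5.68 and -6.04 in WT and -5.93 and -5.77 in KO. Its groups overlapped. The lowest level called well above background was between -5.82 and -5.42 on the 4 arrays, so no fold is given, and the 2 Mef2c probes cannot be compared for agreement.

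Mef2a, a broadly expressed family member, did not pass on either of its probes. On A_52_P311841, at the end of the coding region, the level was -0.69 and -0.83 in WT, and in KO it was -1.01 and -0.86. Both KO arrays lay below both WT arrays, by a margin smaller than the distance between the replicates, and 32.8% of all probes tested were arranged this way. The log2 difference was -0.18 ± 0.11 (SE, n = 2 arrays per genotype; limma adjusted p = 0.377), with a 95% confidence interval of -0.48 to 0.13.

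The second Mef2a probe, A_52_P290579, had levels of -1.72 and -1.62 in WT and -1.83 and -1.59 in KO, and the KO values enclosed those of WT. Its log2 difference was -0.04 ± 0.12 (SE; limma adjusted p = 0.859), with a 95% confidence interval of -0.38 to 0.30. The sign of so small a difference turned with the scaling: it was 0.02 after quantile normalization and 0.04 after median scaling and on the authors' deposited values.

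Mef2d, the partner of MEF2C in B cell development, did not pass on either probe. The spliced mRNA probe A_51_P504672 had levels of -2.22 and -2.17 in WT and -1.85 and -2.42 in KO, so that the KO arrays lay on either side of WT. Its log2 difference was 0.06 ± 0.22 (SE; limma adjusted p = 0.881), and the 95% confidence interval of -0.55 to 0.67 includes the Mef2c difference. The spread between the KO replicates (SD 0.41) was the widest of the 5 tested MEF2 probes: without KO replicate 1 the difference was -0.23 and without KO replicate 2 it was 0.35.

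The probe in the stretch that the spliced Mef2d mRNA skips, A_52_P334052, had levels of -3.38 and -3.37 in WT and -3.42 and -3.55 in KO. Both KO arrays lay below both WT arrays. The log2 difference was -0.11 ± 0.09 (SE; limma adjusted p = 0.498), with a 95% confidence interval of -0.37 to 0.14.

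Mef2b, known from germinal centre B cells, was not well above background on any array. The processed signal of A_52_P9878 lay between 3.4 and 6.54 units. The log2 levels were -6.53 and -5.57 in WT, against -6.57 and -6.59 in KO. The groups did not overlap, but all 4 values are readings at background and no fold is given.

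**Figure D2:**
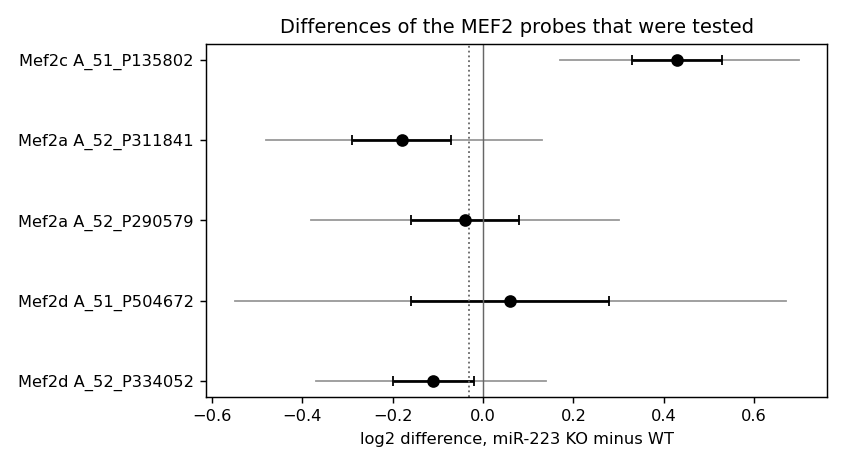
Log2 difference (x axis, miR-223 KO minus WT) of the 5 MEF2 probes tested, with black bars for the SE and grey lines for the 95% confidence interval (n = 2 arrays per genotype); the dotted line is the median of all probes (-0.03). The interval of Mef2c (0.17 to 0.70) lies above 0, and the intervals of both Mef2a and both Mef2d probes include 0.

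The question posed by the family is whether Mef2c differed from its paralogues, and it was asked within each array, where the scaling between arrays cancels. The Mef2c level minus the mean of Mef2a (A_52_P311841) and Mef2d (A_51_P504672), with the WT mean set to 0, lay at -0.06 and 0.06 in WT and at 0.33 and 0.66 in KO. Both KO arrays lay above both WT arrays. The mean change was 0.49 on the log2 scale (n = 2 arrays per genotype), and a two-sided exact permutation test over the arrays gave p = 0.333, the smallest that 2 against 2 arrays allow. No exact test of this design can reach the threshold.

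Taken against each probe in turn, Mef2c was higher on both KO arrays than on both WT arrays relative to all 4 tested paralogue probes. The within-array change of Mef2c A_51_P135802 was 0.61 against Mef2a A_52_P311841, 0.47 against Mef2a A_52_P290579, 0.37 against Mef2d A_51_P504672 and 0.54 against Mef2d A_52_P334052. The distance between KO replicates was 0.04, 0.13, 0.70 and 0.24 in the same order, so that the change against the spliced Mef2d mRNA was smaller than its replicate spread. These comparisons share the Mef2c values. The exact permutation p was 0.333 for each, and 0.333 after adjustment over the 6 comparisons made (the 2 probes at background included). Such a ratio shows unequal change and does not show that a paralogue stayed the same. The Mef2c difference also lay 0.47 above the median of all probes, so a change of this size is not particular to the paralogues. The share of all probes that separate in this way from the paralogues was not computed.

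**Figure D3:**
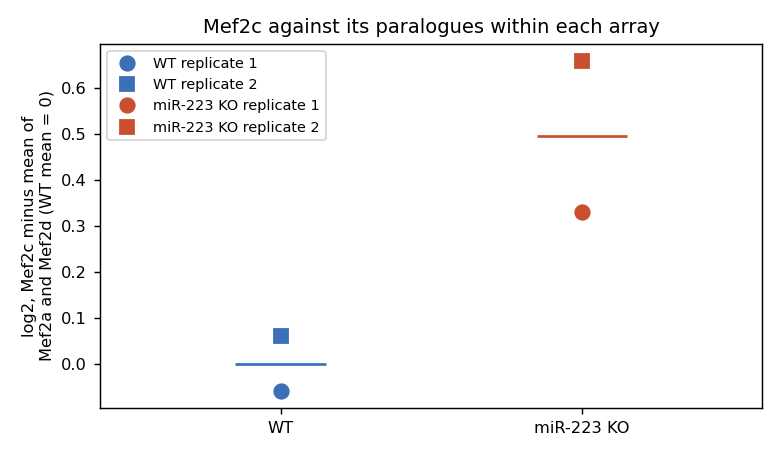
Mef2c (A_51_P135802) minus the mean of Mef2a (A_52_P311841) and Mef2d (A_51_P504672) on each array (y axis, log2, WT mean set to 0), with a bar at each group mean. The WT arrays lie at -0.06 and 0.06, and the KO arrays at 0.33 and 0.66.

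The genes whose pattern over the 4 arrays was nearest to that of Mef2c were Rnf114, Phax, Xpa, Zscan21 and Pqbp1. Likeness was the Euclidean distance between levels centred on the mean of the 4 arrays, over 16978 other genes represented by their brightest probe. The distances were 0.0297, 0.0329, 0.0347, 0.0386 and 0.0402, and the log2 differences of these genes lay between 0.40 and 0.46. Mef2c itself stood at -0.26, -0.18, 0.16 and 0.28 after centring.

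Among reported targets of miR-223, 5 had a larger log2 difference than Mef2c. Of 15 measured members, Mef2c included, 14 were higher in KO, with a median log2 difference of 0.25 (0.40 without KO replicate 2) against -0.03 over all probes. The exception was E2f1, a cell cycle factor, at -0.06. The count higher was 12 with normexp on all spots, with normexp without control spots and without KO replicate 1. It was 15 with median scaling, on the authors' deposited values and without WT replicate 2. In 11 of the 15 the KO arrays lay above the WT arrays, against 26.3% of all probes. Without the intensity trend 0 passed, and with it 7 passed, all higher, against 5.03% of all probes. Rhob (a small GTPase) had a difference of 1.30 ± 0.09 (SE), Ctsz (a lysosomal protease) of 0.99 ± 0.09, Lmo2 (a bridging partner of haematopoietic transcription factors) of 0.80 ± 0.08 and Cbx5 (heterochromatin protein 1 alpha) of 0.45 ± 0.09. The 3 measured Cbx5 probes ran from 0.01 to 0.45. Sp3 and Chuk (named after their values were seen) were higher on the brightest probe but reached -0.23 and -0.08 on another. Igf1r, the IGF-1 receptor (named, like E2f1, after its value was seen), matched Mef2c at 0.43 ± 0.09, although its 4 measured probes ran from -0.40 to 0.43. This list was chosen with earlier results of these data known and is no independent evidence of its direction.

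The corepressors that hold MEF2 in its repressed state went both ways in the fit reported. Of 9 measured, 6 were higher and 3 lower (median log2 difference 0.04, and -0.02 without KO replicate 1), and in 3 of them the KO arrays lay above WT and in 2 below, against 26.3% and 32.8% of all probes. With normexp on all spots 8 were higher (median 0.24, against -0.31 over all probes). With median scaling and on the authors' deposited values 8 were also higher (medians 0.11 and 0.12, against 0.04 and 0.05 over all probes). Hdac5, a class IIa deacetylase exported from the nucleus on calcium signals, had levels of 2.13 and 2.14 in WT and 2.52 and 2.47 in KO. Its groups were well separated, with a difference of 0.36 ± 0.08 (SE; limma adjusted p = 0.123, and adjusted p = 0.0307 with the intensity trend). Hdac9, a class IIa deacetylase whose gene is itself a MEF2 target, differed by 0.60 ± 0.15 at low levels (-4.52 and -4.23 in WT, -3.69 and -3.87 in KO). Hdac4 and Hdac7, the other class IIa members, were at 0.05 and -0.03 with overlapping groups (named to complete the class, after their values were seen). With the trend 1 of the 9, Hdac5, passed, against 5.03% of all probes that passed as higher. Cabin1, a calcium-sensitive MEF2 inhibitor, was at 0.20 on its brightest probe and as low as -0.42 on another, and the corepressor scaffold Sin3a was at -0.21 ± 0.09.

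All 6 measured coactivators of MEF2 had a negative log2 difference, none past the threshold. The median was -0.18 (-0.08 without KO replicate 1) against -0.03 over all probes, and in all 6 both KO arrays lay below both WT arrays, against 32.8% of all probes. With the intensity trend 1 of the 6 passed, against 4.6% of all probes that passed as lower. Maml1, a coactivator shared with Notch signalling, had levels of 1.61 and 1.67 in WT and 1.30 and 1.24 in KO. Its difference was -0.36 ± 0.09 (SE; limma adjusted p = 0.125, and adjusted p = 0.0354 with the trend). Ncoa2, a p160 coactivator, was at -0.20 ± 0.09, the chromatin remodeller Smarca4 at -0.21 ± 0.12 and the arginine methyltransferase Carm1 at -0.16 ± 0.10. With normexp background correction fitted on all spots, which moved the median of all probes to -0.31, 2 of the 6 were higher and the list lay 0.18 above that median.

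Kinases and phosphatases that act on MEF2 or its repressors were mixed, with 10 of 25 higher and 15 lower (median log2 difference -0.09; 0.16 with normexp on all spots). In 4 members the KO arrays lay above WT and in 12 below, against 26.3% and 32.8% of all probes. None (0 of 25) passed, and with the trend 1 passed as higher and 3 as lower, against 5.03% and 4.6% of all probes. Camk1, a calcium/calmodulin-dependent kinase that can phosphorylate class IIa deacetylases, showed the widest gap, with levels of -2.43 and -2.32 in WT, against -1.25 and -1.28 in KO. The groups lay far apart compared with their replicates (difference 1.11 ± 0.09 SE, limma adjusted p = 0.0874, and adjusted p = 0.00733 with the trend), and its 2 probes gave 1.04 and 1.11.

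Camk1d, a relative of Camk1, was at 0.57 ± 0.11 (SE) on its brightest probe and did not pass with or without the trend. Camkk2, the kinase that activates Camk1, was lower, with levels of 2.34 and 2.50 in WT and 1.86 and 1.88 in KO and a difference of -0.55 ± 0.10 (limma adjusted p = 0.0991, and adjusted p = 0.0154 with the trend). Sik1, a salt-inducible kinase that phosphorylates class IIa deacetylases, was at -0.54 ± 0.11 (adjusted p = 0.0319 with the trend in limma). Mapk14, which encodes p38 alpha, was at -0.14 ± 0.09 and Mapk7, which encodes ERK5, at -0.34 ± 0.09. Mapk7 passed as lower with the trend alone (limma adjusted p = 0.0382, and 0.143 without it), and Mapk14 did not pass. Mapk14 and Mapk7 were named after their values were seen.

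Reported MEF2 targets of immune and growing cells included several immediate early genes with large differences. Of 14 measured, 9 were higher and 5 lower (median log2 difference 0.28; 0.77 with normexp on all spots, where 12 were higher). In 8 the KO arrays lay above WT and in 3 below, against 26.3% and 32.8% of all probes. None (0 of 14) passed, and with the trend 5 passed as higher and 1 as lower, against 5.03% and 4.6% of all probes. Jun, the AP-1 subunit through which MEF2C is reported to act in monocyte development, had levels of 1.47 and 1.29 in WT, against 2.58 and 2.65 in KO. The groups lay far apart, with a difference of 1.23 ± 0.10 (SE; limma adjusted p = 0.0874, and adjusted p = 0.00285 with the trend).

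Egr1, an immediate early zinc finger factor, was at 0.90 ± 0.13 (SE), Klf4, a factor of monocyte differentiation, at 0.87 ± 0.14 and the AP-1 subunit Fos at 0.82 ± 0.16. Nr4a1, a calcium-induced nuclear receptor and a standard MEF2 target of lymphocytes, was at -0.04 ± 0.21 with overlapping groups. It was named after its value was seen. Bcl2, the member that passed as lower with the trend (limma adjusted p = 0.0315), was at -0.57 ± 0.13. Its 3 measured probes ran from -0.65 to 0.05, and it too was named after its value was seen. Klf4 and Irf8 of this list are also expressed by monocytes, and Irf8 stands in the list of monocyte markers as well. The part of monocytes in the differences of this list, these 2 genes or others, was not tested.

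Of 8 muscle targets, which MEF2 drives in heart and skeletal muscle, 4 were well above background on all 4 arrays and 4 on none (Ckm, Myog, Des and Myh6). Of the 4 measured, 2 were higher and 2 lower, and 0 passed with or without the trend. The median was -0.01, and with an array left out it ran from -0.21 (without WT replicate 1) to 0.29 (without WT replicate 2). With normexp on all spots the median was -1, against -0.31 over all probes, and 1 of the 4 was higher. The ventricular light chain gene Myl2 was at 0.76 ± 0.14 (SE) and the sarcomeric linker Ldb3 at -0.34 ± 0.10, with Acta1 at -0.49 ± 0.40 and Actc1, cardiac actin, at 0.33 ± 0.27.

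Mef2c is also expressed by monocytes, dendritic cells, B cells and megakaryocytes, so their markers were measured beside it. In bulk RNA, fewer cells of a type and less RNA per cell cannot be told apart. Monocyte and macrophage markers were higher in KO: 11 of 12 measured, with a median log2 difference of 0.69, and a summed signal (in units of the array's 75th percentile) of 67.6 to 68.7 in WT and 102 to 115 in KO. Ccr2, a monocyte chemokine receptor, was at 0.82 ± 0.09 (SE), F13a1 at 0.71 ± 0.09 and Adgre1, which encodes F4/80, at 0.97 ± 0.12. None (0 of 12) passed, and with the trend 8 did, all higher, against 5.03% of all probes. All 12 were well above background.

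Dendritic cell markers were higher in 7 of 8 (median 0.54, and 0.31 without KO replicate 1; summed signal 50.1 to 56.8 in WT and 70.8 to 90.7 in KO), with the smallest p for the MHC class II genes H2-Ab1 (0.65 ± 0.13 SE) and H2-Aa (0.69 ± 0.15) and for Bst2 (0.61 ± 0.20). Itgax (CD11c) was at 0.18 ± 0.11, Flt3 at 0.15 ± 0.38 and Siglech, the member lower in KO, at -1.34 ± 1.23 with overlapping groups (these 3 were named after their values were seen). Cd74 had levels of 4.38 and 4.65 in WT and 5.29 and 4.81 in KO (named after its values were seen). H2-Ab1 had levels of 4.15 and 4.37 in WT and 5.01 and 4.82 in KO. Both lay above the rest of the list on every array and so weigh most in the summed signal. None (0 of 8) passed, and with the trend 2 did, both higher, against 5.03% of all probes. Megakaryocyte markers were higher in 4 of 4 measured (median 0.41; summed signal 1.38 to 1.55 in WT and 2.25 to 2.98 in KO), with Gp9 at 1.19 ± 0.11, Pf4 at 0.65 ± 0.58 and Gp1bb at 0.05 ± 0.13. The megakaryocyte median was 0.04 without KO replicate 2, 0.15 without WT replicate 1 and -0.30 with normexp on all spots. With the trend 1 of the 4, Gp9, passed as higher, against 5.03% of all probes. Gp9 had the highest level of the list on every array (-0.56 and -0.56 in WT, 0.52 and 0.75 in KO) and so weighs most in the summed signal. The summed signal also holds Ppbp, a platelet chemokine gene that was well above background on KO replicate 2 alone (level -2.10, against -7.48 to -7.28 on the other arrays; named after its values were seen).

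B lineage markers were mixed. Of 8 measured, 2 were higher and 6 lower (median -0.21, and 0.10 without KO replicate 2), and the summed signal was 8.18 to 8.63 in WT and 8.70 to 11.7 in KO. Igll1 (-0.66 ± 0.17 SE) and Vpreb1 (-0.39 ± 0.11), which encode the surrogate light chain, did not pass with or without the trend. The receptor subunit Cd79b (0.46 ± 0.13) passed with the trend alone (limma adjusted p = 0.0455), as 1 of the 8, against 5.03% of all probes that passed as higher. Cd79b had the highest level of the list on every array (2.27 and 2.37 in WT, 2.92 and 2.64 in KO). It therefore weighs most in the summed signal. Rag1 was not well above background on any array. The part of monocytes, dendritic cells, megakaryocytes and B cells in the Mef2c difference was not tested.

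Of the remaining lists, eosinophil markers were higher in 4 of 4 measured (median 0.93, summed signal 11.0 to 12.9 in WT and 17.9 to 19.3 in KO), among them Siglecf (0.87 ± 0.10 SE), Epx (1.0 ± 0.19) and Prg2 (1.51 ± 0.31), with Il5ra not well above background. Stem and progenitor markers were higher in 5 of 6 (median 0.22, but 0.04 without WT replicate 2 and -0.23 with normexp on all spots; summed signal 22.5 to 24.1 in WT and 25.6 to 31.0 in KO), with Cd34 at 0.89 ± 0.19, Gata2 at 0.36 ± 0.23 and Hoxa9 at 0.37 ± 0.26 and with Mecom not well above background. Granulocyte precursor markers were higher in 7 of 12 (median 0.08, but -0.05 without WT replicate 1, 0.20 with quantile normalization and 0.52 with normexp on all spots, where all 12 were higher; summed signal 5850 to 6410 in WT and 5460 to 6180 in KO), with the azurophil granule genes Prtn3 (0.72 ± 0.10), Ctsg (0.63 ± 0.09) and Elane (0.50 ± 0.10) having the smallest p. In 5 of the 12 both KO arrays lay above both WT arrays and in 3 below, against 26.3% and 32.8% of all probes. The 3 below were lactoferrin (Ltf) at -0.44 ± 0.24, S100a8 at -0.20 ± 0.12 and S100a9 at -0.20 ± 0.10, and none of these passed with or without the trend. They were named after their values were seen. Gata2, of the stem and progenitor list, was well above background on no more than 3 of the 4 arrays.

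T cell markers were higher in 2 of 6 (median -0.14, but 0.30 without KO replicate 2 and 0.02 without WT replicate 1; summed signal 1.07 to 1.12 in WT and 0.476 to 0.629 in KO), with Cd3d at -1.43 ± 0.08 (SE), Cd3e at -0.22 ± 0.18 and Cd3g at 0.37 ± 0.30. Cd3d had the highest level of the list on every array (-0.32 and -0.29 in WT, -1.74 and -1.73 in KO) and so weighs most in the summed signal. Cd8a (-0.82 ± 1.09), Lck (-0.05 ± 0.49) and Cd2 (0.06 ± 0.20) had overlapping groups (named after their values were seen). Cd3g and Cd8a were each well above background on 3 of the 4 arrays. Cd3g on WT replicate 1 (-5.85) and Cd8a on KO replicate 2 (-6) lay under the lowest levels called well above background there (-5.42 and -5.82). Erythroid markers were lower in 4 of 4 measured (median -0.68), with Epor at -0.75 ± 0.17, Hba-a1 at -0.61 ± 0.16 and Alas2 at -0.82 ± 0.22 and with Gata1 not well above background. With normexp on all spots 1 of the 4 was higher, and the erythroid median was -0.32, against -0.31 over all probes. Without WT replicate 1 also 1 of the 4 was higher (median -0.71). With the trend 4 of 4 eosinophil, 1 of 6 stem and progenitor and 3 of 12 granulocyte markers passed as higher, against 5.03% of all probes. As lower, 1 of 6 T cell and 2 of 4 erythroid markers passed, against 4.6% of all probes.

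**Figure D4:**
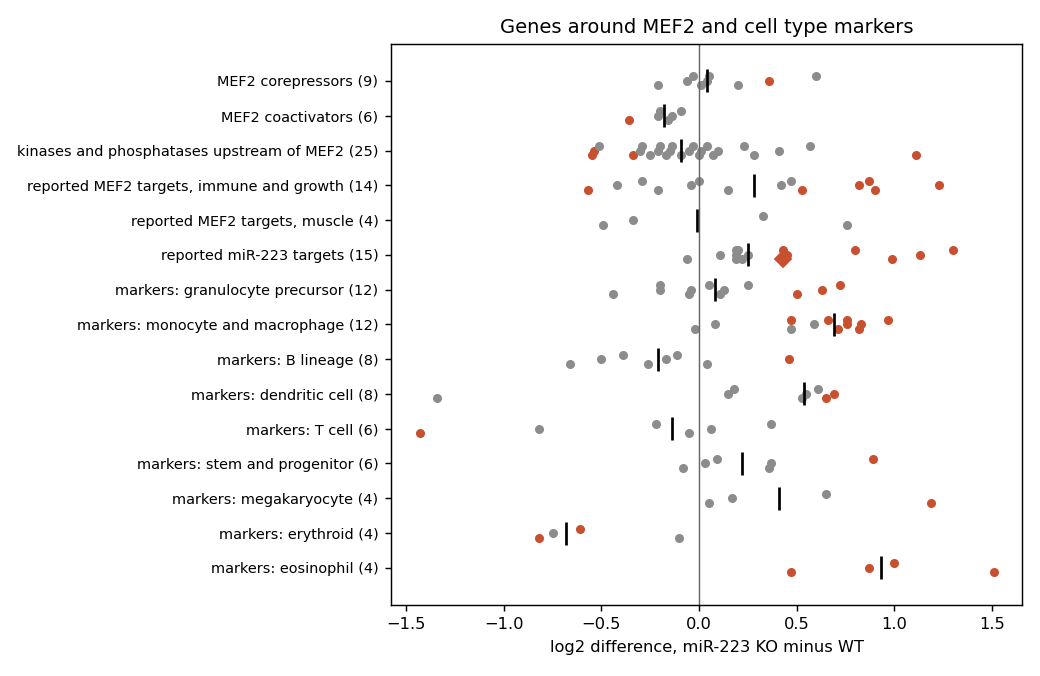
Log2 difference (x axis, miR-223 KO minus WT) of each measured gene in the lists around MEF2 and in the marker lists, with the number measured in brackets and a black bar at each median; red points had an adjusted p under 0.05 with limma's intensity trend, grey points did not, and the diamond is Mef2c. Coactivators lie to the left of 0 (median -0.18), and monocyte (0.69) and eosinophil (0.93) markers to the right.

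**Figure D5:**
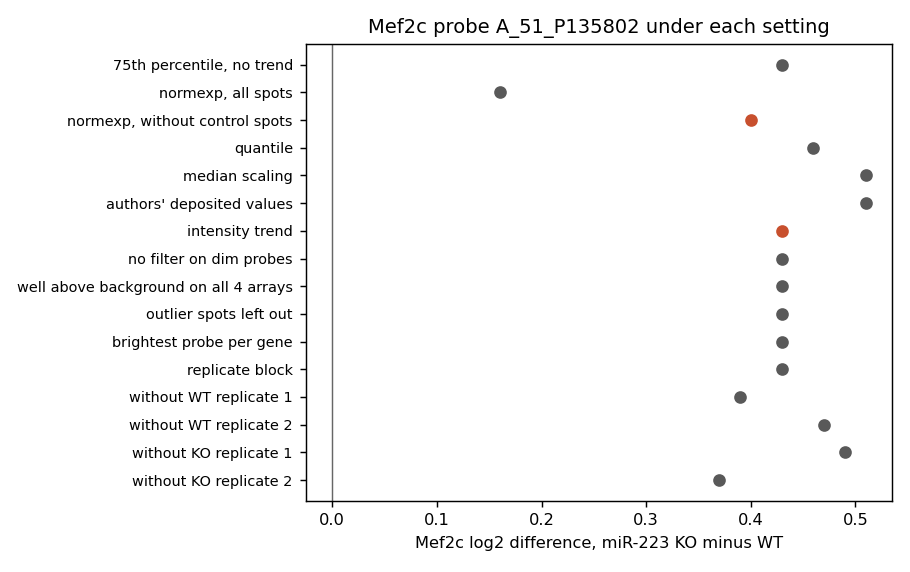
Log2 difference of Mef2c probe A_51_P135802 (x axis, miR-223 KO minus WT) under each processing setting, red where the adjusted p was under 0.05. Values run from 0.16 with normexp on all spots to 0.51 with median scaling or the authors' deposited values, all above 0.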

How the data were processed

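Per the file headers, each array was read with Agilent Feature Extraction 10.5.1.1, and the deposited intensity is a detrended processed signal with background already subtracted and no scaling across arrays. The table of values the authors deposited is on a log2 scale, judged by its match to the scanner files (Pearson's r across probes 0.9999 or higher; column medians 4.68 to 4.69).

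Spots of a probe were averaged after log2 and subtraction of the array's 75th percentile. Differences were fitted in limma 3.58.1 (R 4.3.3, with lmFit, eBayes without trend and no replicate block) on probes well above background on at least 2 arrays. The size of the fitted differences was checked on simulated data with independent noise. That check gives no error rate for the calls on these arrays. In a list a gene stands for its brightest measured probe, named through accession (26933 probes), symbol (5570) or synonym (890) in a RefSeq table of GRCm38.p6; 7781 kept their name. Named genes are the 4 members of a list (3 of a marker list) with the smallest p, markers at background, and the 5 genes nearest to Mef2c, besides those said to be named later. Same-numbered arrays were not paired (correlation of their deviations 0.0267). The MEF2 members and all lists were chosen with earlier results of these data known. An erythroid marker, and the summed signal of its list, are not reported here.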

Additional observations from a re-analysis of the deposited data

How the results depend on the processing

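The Mef2c difference stayed above 0 under every setting tried. It passed with an intensity trend (0.43, limma adjusted p = 0.0448) and when control spots were kept out of the normexp fit (0.40, adjusted p = 0.0277), and not under the others. With the replicate block it was 0.43 (adjusted p = 0.165). Leaving out each array in turn gave 0.37 to 0.49. With normexp on all spots it was 0.16, 0.47 above the median of all probes, as in the fit reported. The change of Mef2c against its paralogues ran from 0.33 to 0.66 when an array was left out and from 0.46 to 0.62 under the other settings. The count of probes passing was 3545 with normexp without control spots, 2480 with the trend, 267 on the authors' deposited values, 128 on probes well above background on all 4 arrays, 106 with median scaling and 5 with quantile normalization; with the replicate block, and with each array left out, it was 0. Mef2a A_52_P290579 turned to 0.02 (quantile), 0.04 (median scaling) and 0.04 (authors' values), was -0.52 with normexp on all spots, and ran from -0.16 to 0.08 with an array left out. Mef2d A_51_P504672 turned to -0.58 (normexp, all spots) and -0.04 (without control spots), and ran from -0.23 to 0.35 with an array left out. Mef2a A_52_P311841 and Mef2d A_52_P334052 stayed below 0 throughout, from -0.33 (normexp, all spots) to -0.08 (without control spots) and from -0.92 (normexp, all spots) to -0.03 (median scaling). The cause was not tested. For Mef2b and Mef2c A_52_P282110 no alternative is given, since both are at background, which limits what these arrays show of them.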
